A study of Mus musculus with 194 samples.

Results

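Btg1, Btg2, Gadd45a, Gadd45b, Gadd45g, Ier2, Ier5, Cyr61, Sik1 and Srf are 10 of the 19363 genes of the count table, and each was chosen by its gene symbol. They are genes known for fast and short-lived transcription after a stimulus, and here their transcripts were followed in 5 brain structures of mice that received cocaine. The mice were males of the strain C57BL/6OLAHSD, 6 to 7 weeks old on arrival, and the mice given cocaine were first habituated with saline injections for 3 days. Acute mice received 1 intraperitoneal dose of cocaine at 20 mg/kg, repeated mice 5 daily doses, and challenge mice a further dose after 21 days of abstinence from repeated cocaine. The sample labels call the repeated regimen chronic. Structures were collected 0, 1, 2 or 4 hr after the last dose. The 0 hr group of the acute experience was drug naive, that of the repeated experience was taken 24 hr after the fourth dose, and that of the challenge experience was abstinent. Mice of the 0 hr groups were taken from the home cage and received no injection on the day of collection. Per the study's methods, injected mice were placed in an open field box. Effects of cocaine, of the injection and of the box therefore cannot be told apart in any comparison with 0 hr.

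The structures were the dorsal striatum (DS), the nucleus accumbens (NAc), the limbic cortex (LCtx), the amygdala (Amy) and the lateral hypothalamus (LH). A time course used 166 libraries, 1 for each structure of each mouse, where a group held 3 to 5 DS samples, 2 to 4 NAc or Amy samples, 1 to 4 LCtx samples and 1 or 2 LH samples. A second library of 2 mice in each of the 12 DS groups came from a further sequencing run, called the shared run here because it held all 3 experiences (24 libraries of mice that are also in the time course). The structures were whole tissue, in which a change in the number of cells of a type and a change in RNA per cell cannot be told apart. Values are given as CPM, the counts of a gene divided by all counts of its library and scaled to a common total.

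Library totals ran from 1193306 to 10367769 counts. Marker genes followed the labels: the summed level of 8 striatal projection neuron genes was 10739 to 13626 CPM in the DS, 6071 to 9569 CPM in the NAc and at most 1845 CPM elsewhere, and that of 5 hypothalamic genes was 9323 to 16115 CPM in the LH and at most 1611 CPM elsewhere. Some libraries stood apart in markers of other cells. In DS acute 0 hr replicate 1, the 5 mural and meningeal genes summed to 185 CPM (1 of the 5 was at 0), against 41.1 to 47.6 CPM in the other 3 naive DS libraries, and the 3 choroid plexus genes summed to 195 CPM, against 49.3 to 55.1 CPM. Its 5 endothelial genes (158 CPM) were below the 181 to 218 CPM of the other 3. Values of DS acute contrasts are therefore given with and without this library where they turn on it. The 8 blood genes summed to 7517 to 12620 CPM in all acute LCtx libraries, at each time, and to at most 1008 CPM in the other LCtx libraries. An acute LCtx library at 1 hr had 56.3 CPM of the 2 ependymal genes, against a median of 0.526 CPM in the LCtx, and an LH library 2 hr after repeated cocaine had 254 CPM of the mural and meningeal genes, against a median of 67.1 CPM in the LH. The part of these cells in the members' values there was not tested.

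Btg1 and Btg2 encode antiproliferative proteins that bind the CCR4-NOT deadenylase and promote the shortening of mRNA tails. The Gadd45 genes encode small stress sensors that bind the kinase MAP3K4 and that have been linked to active DNA demethylation, and Gadd45b is known as an activity-induced gene of neurons. Ier2 and Ier5 are immediate early genes, and the IER5 protein recruits the phosphatase PP2A to the heat shock factor HSF1. Cyr61, now also named Ccn1, encodes a secreted matricellular protein of the CCN family and is a target of the YAP and TEAD factors. Sik1 encodes a salt-inducible kinase that is induced through CREB and that then restrains the CREB coactivators CRTC. Srf encodes the serum response factor, which binds CArG boxes in the promoters of immediate early and cytoskeletal genes.

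Promoters are shown for Btg2 and Gadd45b, which carried most of the calls described below, and for Srf, which holds the box that its own protein is known to bind. Each runs from 250 to 21 bases before the RefSeq start site on the coding strand, from RefSeq on GRCm38.p6, and 8 of the 10 members had an entry. The capitals in Btg2 (chr1:134079176-134079405, minus strand) mark a full cAMP response element, TGACGTCA, at positions -166 to -159.

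Btg2: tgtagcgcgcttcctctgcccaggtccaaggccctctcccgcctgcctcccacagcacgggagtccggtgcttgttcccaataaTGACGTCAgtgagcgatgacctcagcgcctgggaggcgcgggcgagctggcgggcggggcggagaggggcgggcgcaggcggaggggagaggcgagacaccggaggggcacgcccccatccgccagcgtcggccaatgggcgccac

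In Gadd45b (chr10:80929841-80930070, plus strand) the capitals mark TATAAA at positions -46 to -41.

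Gadd45b: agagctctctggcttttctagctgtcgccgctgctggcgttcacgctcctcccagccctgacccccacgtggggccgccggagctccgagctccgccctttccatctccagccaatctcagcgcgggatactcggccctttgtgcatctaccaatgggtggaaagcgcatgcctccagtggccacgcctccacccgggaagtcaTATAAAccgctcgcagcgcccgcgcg

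In Srf (chr17:46556183-46556412, minus strand) the capitals mark an EGR site at -101 to -93, CArG boxes at -82 to -73 and -62 to -53, and TATAAA on the opposite strand at -38 to -33.

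Srf: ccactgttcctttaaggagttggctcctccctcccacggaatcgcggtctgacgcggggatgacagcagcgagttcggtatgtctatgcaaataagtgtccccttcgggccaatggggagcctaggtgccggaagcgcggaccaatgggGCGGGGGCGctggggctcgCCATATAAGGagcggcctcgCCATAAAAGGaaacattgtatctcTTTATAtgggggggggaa

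Both strands were searched, and matches to different motifs may overlap. The full cAMP response element occurred in 1.28% of the 32851 RefSeq promoter windows of this length, TATAAA in 11.8%, the CArG box in 1.41% and the EGR site in 2.63%. Of the 8 members, Btg2 had the cAMP response element, Srf the CArG box and the EGR site, and Btg1, Gadd45b, Gadd45g and Srf TATAAA. The windows end at position -21, so a match that runs past it was missed, and the window of Cyr61 ends in TATAA. These matches describe the letters and were not tested for binding.

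In the DS at 1 hr after acute cocaine, 4 of the 10 members passed an adjusted p of 0.05 with a fold change over 1.2, where 1.05% of the 12918 genes tested did. Btg2, Gadd45b and Sik1 were higher than in naive mice, and Cyr61 was lower, a call that was not made once 1 naive library, described further on, was left out. At 1 hr after repeated cocaine Btg2 alone was called (0.263% of genes), and after challenge Btg2 and Gadd45b were called (0.348% of genes). At 2 and 4 hr no member other than Cyr61 was called in the DS, where 1.07 and 0.921% of genes were called after acute, 0.0852 and 0% after repeated and 0.224 and 0.0155% after challenge cocaine. The median log2 fold change of the 10 members at 1 hr was 0.28 after acute, 0.33 after repeated and 0.34 after challenge cocaine, and that of all genes was -0.01 after acute and repeated cocaine and closer to 0 after challenge.

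Btg2 (chr1:134075170-134079120, minus strand) had 19.998, 15.95, 6.22 and 5.18 CPM in the 4 naive DS mice and 21.9, 26.2, 26.4 and 40.7 CPM 1 hr after acute cocaine. All mice at 1 hr were above all naive mice, although 2 naive mice lay close below the lowest of them. Its log2 fold change was 1.40 ± 0.31 (SE; edgeR, adjusted p = 0.00588), a fold of 2.64. Leaving out naive replicate 3, naive replicate 4 or 1 hr replicate 4 ended this call, with a range of 1.11 to 1.89 over the 8 mice left out.

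After repeated cocaine, Btg2 rose in the DS from 6.51, 5.22, 10.03 and 8.47 CPM to 26.4, 24.9, 22.2 and 30.3 CPM, with no overlap between the groups. The log2 fold change was 1.77 ± 0.32 (adjusted p = 0.0006), and the 2 mouse cohorts that made up these groups each showed it, with differences of 1.958 and 1.41 in log2(CPM + 1). After challenge it rose from 8.39, 11.9 and 4.87 CPM to 25.0, 63.1, 40.4 and 20.4 CPM. That rise, 2.17 ± 0.33 (adjusted p = 1.24e-05), was the largest of the 3 in size, and both it and the repeated one were still called after any single mouse was left out. By 2 hr Btg2 had 5.85 to 12.3 CPM in acute, 3.87 to 17.5 CPM in repeated and 8.85 to 15.4 CPM in challenge mice, and by 4 hr 4.47 to 13.3 CPM over all 3 experiences. These ranges overlapped the 0 hr groups, and no contrast at 2 or 4 hr was called. The second libraries of the shared run gave 2.04 ± 0.44 after acute (adjusted p = 0.0114), 2.28 ± 0.48 after repeated (adjusted p = 0.0142) and 1.25 ± 0.45 after challenge cocaine, which was not called there with 2 mice a group (adjusted p = 0.343). In that run 0.268, 0.22 and 0.195% of genes were called after acute, repeated and challenge cocaine.

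Gadd45b (chr10:80930073-80932204, plus strand) rose in the DS after acute cocaine from 40.3, 27.1, 28.3 and 31.9 CPM to 70.2, 66.0, 82.7 and 83.6 CPM. The lowest mouse at 1 hr was well above the highest naive mouse. The log2 fold change was 1.26 ± 0.17 (adjusted p = 3.71e-07), and it was called after each of the 8 mice was left out. After challenge it rose from 24.3, 31.7 and 28.8 CPM to 62.0, 61.2, 46.8 and 42.3 CPM (0.92 ± 0.18, adjusted p = 0.00236), a call that, of the mice left out in turn, was lost without abstinent replicate 1. It was also not made in the second libraries of the shared run, with 17.7 and 20.01 CPM at 0 hr and 60.5 and 34.5 CPM at 1 hr (1.33 ± 0.35, adjusted p = 0.108, 2 mice a group).

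After repeated cocaine the values of Gadd45b were 31.9, 23.5, 32.03 and 31.0 CPM at 0 hr and 37.0, 40.2, 41.0 and 38.6 CPM at 1 hr. All 4 mice at 1 hr were again above all 4 at 0 hr, as held for 1.65% of genes in this comparison, but the log2 fold change was 0.40 ± 0.18 and was not called (adjusted p = 0.764). The difference between the repeated and the acute log2 fold change of Gadd45b was -0.85 ± 0.25, with a 95% interval from -1.34 to -0.37 that holds for this gene alone. Over all genes it was not called (adjusted p = 0.45), and in the shared run the same difference was -0.95 ± 0.48. Without a filter on low counts it was called (adjusted p = 0.0405). At 2 hr Gadd45b had 37.1 to 53.8 CPM after acute, 22.2 to 42.2 CPM after repeated and 34.7 to 52.9 CPM after challenge cocaine, and none of these was called.

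Sik1 (chr17:31844250-31855804, minus strand) was low in naive DS mice, with 3.39, 0.694, 4.98 and 2.18 CPM, and had 11.2, 9.27, 9.56 and 13.98 CPM 1 hr after acute cocaine. No mouse of one group reached the range of the other. Its log2 fold change was 1.86 ± 0.33 (adjusted p = 0.000202), a fold of 3.63, and was called after each of the 8 mice was left out. After repeated cocaine Sik1 had 5.27, 1.63, 4.85 and 6.72 CPM at 0 hr and 10.4, 12.97, 11.5 and 6.32 CPM at 1 hr, where the groups overlapped by 1 mouse. That difference, 1.14 ± 0.30, was not called by edgeR (adjusted p = 0.116) and was called by DESeq2 (adjusted p = 0.0452). After challenge it had 9.03, 7.11 and 8.82 CPM at 0 hr and 17.0, 12.8, 18.6 and 14.6 CPM at 1 hr (0.92 ± 0.28, adjusted p = 0.285). Sik1 had 2.49 to 5.85 CPM 2 hr and 3.10 to 5.64 CPM 4 hr after acute cocaine, and neither contrast was called. The second libraries of the shared run had 18.1 and 19.01 CPM at 1 hr (2.44 ± 0.60, adjusted p = 0.0619, not called with 2 mice a group), 4.76 and 13.6 CPM at 2 hr and 7.39 and 8.99 CPM at 4 hr, against 3.71 and 3.09 CPM in naive mice. The mouse with 13.6 CPM there (33 counts) was the one with 2.49 CPM (11 counts) in the time course, so the runs differed for this mouse. They also differed 4 hr after repeated cocaine, with 12.9 and 17.6 CPM in the shared run and 3.49 and 2.33 CPM for the same mice in the time course. Around challenge the shared run had 15.04 and 13.9 CPM at 0 hr and 23.5 and 8.63 CPM at 1 hr, where the groups overlapped (0.14 ± 0.55). After challenge Sik1 had 9.90 to 12.9 CPM at 2 hr and 4.44 to 6.60 CPM at 4 hr.

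**Figure D1:**
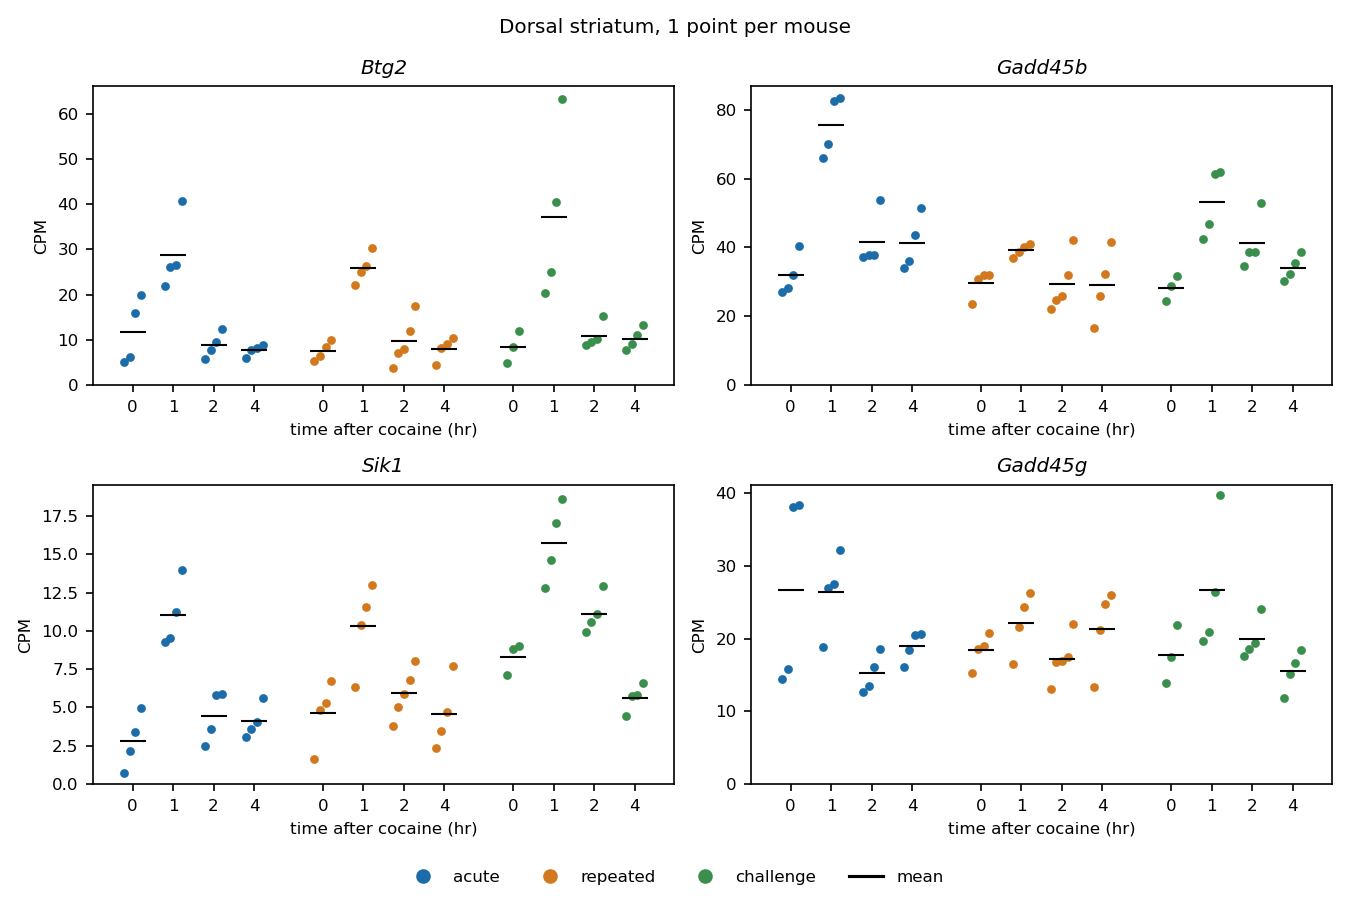
CPM of Btg2, Gadd45b, Sik1 and Gadd45g in the DS (vertical axes) against the hours after cocaine (horizontal axes), with 1 point per mouse, a bar at the mean and a colour for each cocaine experience. Btg2, Gadd45b and Sik1 peak at 1 hr, Gadd45b from at most 40.3 CPM in naive mice to at least 66.0 CPM 1 hr after acute cocaine, and the naive Gadd45g values split into a high and a low pair.

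Gadd45g (chr13:51846678-51848468, plus strand), the relative of Gadd45b, had 38.3, 38.2, 15.9 and 14.4 CPM in the naive DS mice and 27.5, 18.8, 27.0 and 32.2 CPM 1 hr after acute cocaine. The 1 hr values lay between the pairs of naive values, and the log2 fold change was 0.09 ± 0.22 (adjusted p = 0.959). The 2 naive mice with high Gadd45g, replicates 1 and 2, were also the 2 with high Btg2. Of them only replicate 1 had raised mural, meningeal and choroid plexus genes. Both had more of the 4 cortical glutamatergic genes (38.3 and 70.8 CPM, against 28.6 and 24.2 CPM in replicates 3 and 4) and of the 2 ependymal genes (56.6 and 26.4 CPM, against 16.8 and 3.54 CPM). At 1 hr after acute cocaine the glutamatergic sum was 14.1, 20.4, 22.2 and 38.9 CPM, in the same order over the mice as Btg2. The part of these cells in either gene's values was not tested. At 2 hr Gadd45g had 12.7 to 18.5 CPM (-0.75 ± 0.23, adjusted p = 0.0837), a difference that was called once either low naive mouse was left out (adjusted p = 0.0208 and 0.0105).

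Gadd45a (chr6:67035096-67037457, minus strand, overlapping E230016M11Rik on the opposite strand) was called in no contrast with 0 hr in any structure. In the DS it had 3.73 to 6.54 CPM in naive mice and 2.73 to 6.38 CPM 1 hr after acute cocaine, 1.83 to 13.6 CPM over all 48 time-course libraries. Its log2 fold change 1 hr after acute cocaine was -0.23 ± 0.33, beside 1.26 ± 0.17 for Gadd45b, and the difference between the genes was not tested.

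Btg1 (chr10:96617006-96622809, plus strand), the relative of Btg2, had 5.45 to 7.63 CPM in naive DS mice and 5.72 to 9.84 CPM 1 hr after acute cocaine, and was called in no contrast with 0 hr. Its processed copies Btg1-ps1 and Btg1-ps2 on chromosome X could share reads with it. Ier5 (chr1:155096361-155099636, minus strand) encodes a partner of the heat shock pathway and had 99.7, 118, 112 and 108 CPM in naive mice and 136, 128, 136 and 127 CPM 1 hr after acute cocaine, so the groups did not overlap, as held for 2.32% of genes. The log2 fold change of 0.31 ± 0.10 was not called (adjusted p = 0.149).

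Srf (chr17:46548329-46556175, minus strand, overlapping Gm26904 on the opposite strand and Mir6976) had 79.7, 74.2, 77.8 and 88.8 CPM in naive DS mice and 95.05, 94.6, 95.04 and 93.01 CPM 1 hr after acute cocaine (0.26 ± 0.11, adjusted p = 0.497). At 2 hr it had 91.1 to 124 CPM, a log2 fold change of 0.41 ± 0.11 that missed the threshold narrowly (adjusted p = 0.0501). DESeq2 called it (adjusted p = 0.0278), as did the fit without a filter (adjusted p = 0.0109). At 4 hr Srf had 82.6 to 85.2 CPM.

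No difference in induction between experiences was called for a member in the DS. Each experience came from mouse cohorts of its own, so cohort and experience cannot be told apart in these differences. In all 3 differences 0% of the 12918 genes were called by edgeR, while 649, 676 and 435 genes had an unadjusted p under 0.05, and DESeq2 called 1, 0 and 0 genes. For Btg2 the repeated rise minus the acute rise was 0.37 (95% interval -0.52 to 1.27), challenge minus acute 0.77 (-0.13 to 1.67) and challenge minus repeated 0.39 (-0.53 to 1.32). For Sik1 the same 3 differences were -0.72 (-1.62 to 0.19), -0.93 (-1.80 to -0.07) and -0.22 (-1.03 to 0.59). These intervals hold for each gene alone and leave room for differences of over 1 on the log2 scale. They come from the time course, where acute libraries lay in another run than the rest, although each rise lies within 1 run. In the shared run 9 members were tested and 0 were called. There challenge minus acute was below 0 for all 9, Btg2 and Sik1 among them (median -0.38), against 4 of 10 in the time course. Repeated minus acute was below 0 for 8 of 9 (median -0.62), against 5 of 10. Challenge minus repeated was above 0 for 6 of 9, against 6 of 10.

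In each of the other structures fewer members were called at 1 hr after acute cocaine than in the DS, with fewer mice in most groups. In the NAc 0 of 10 members were called after acute (0.1% of genes) and repeated cocaine (0.0617%) and 1 after challenge (0.0617%). The LCtx had 0 members called after acute (0.342%) and repeated cocaine (0.0521%) and 1 after challenge (0.0297%). Amy gave 1 after acute (0.0155%), 0 after repeated (0.0233%) and 2 after challenge cocaine (0.0931%). In the LH 0 were called after acute (0.068%) and repeated cocaine (0.0302%), and the challenge groups there were not tested because 0 hr held 1 mouse. Unadjusted p-values under 0.05 at 1 hr after acute, repeated and challenge cocaine were held by 1, 2 and 4 members for NAc, where 2.7, 3.84 and 11.4% of genes had one. The counts were 2, 5 and 3 members for LCtx (6.54, 3.41 and 3.8% of genes) and 4, 3 and 4 members for Amy (3.5, 4.94 and 3.62% of genes). For LH they were 1 and 2 members after acute and repeated cocaine (4.49 and 6.26% of genes). A count of 1 of 10 members is not read as a result about them.

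**Figure D2:**
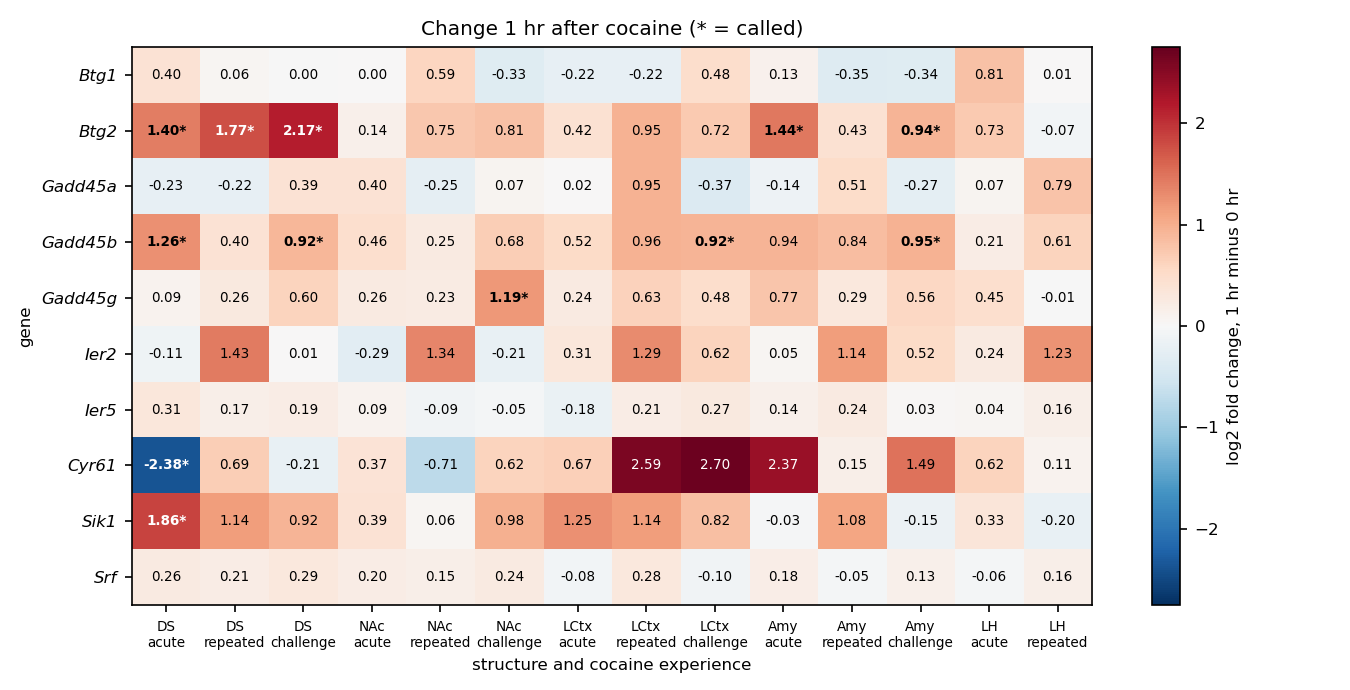
Log2 fold change from 0 to 1 hr after cocaine for each member (rows) in each structure and experience (columns), with the value in each cell, red for higher and blue for lower, and a star where edgeR called it. Most stars lie in the rows of Btg2 and Gadd45b, and Cyr61 in the DS after acute cocaine, at -2.38, is the 1 starred decrease.

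In the amygdala Btg2 rose after acute cocaine from 8.79 and 7.88 CPM to 20.99 and 24.6 CPM, a log2 fold change of 1.44 ± 0.26 (adjusted p = 0.00792). The groups of 2 mice did not overlap, as held for 16.6% of genes, and the call was lost without either naive mouse or without 1 hr replicate 2. After challenge it rose from 8.72, 13.1 and 11.9 CPM to 17.6, 23.0, 24.1 and 20.1 CPM (0.94 ± 0.19, adjusted p = 0.0161), a call lost in 3 of the 7 fits that left out a mouse (without 0 hr replicates 1 or 3 or 1 hr replicate 3). The challenge libraries came from 2 runs, within which the differences were 1.03 and 0.59 in log2(CPM + 1). After repeated cocaine Btg2 had 12.8 and 10.7 CPM at 0 hr and 14.1 and 17.4 CPM at 1 hr, and was not called.

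Gadd45b in the amygdala had 20.8 and 15.5 CPM at 0 hr and 33.1 and 36.9 CPM at 1 hr after acute cocaine (0.94 ± 0.21, adjusted p = 0.102), and 22.8 and 21.2 CPM and 42.1 and 37.0 CPM after repeated cocaine (0.84 ± 0.21, adjusted p = 0.211). With 3 and 4 mice it was called after challenge, from 25.7, 29.3 and 19.5 CPM to 50.9, 43.9, 43.3 and 52.2 CPM (0.95 ± 0.15, adjusted p = 0.000725). The rise was still called at 2 hr, with 48.9, 46.0, 36.3 and 36.1 CPM (0.76 ± 0.16, adjusted p = 0.0266, among 0.0543% of genes), and by 4 hr the log2 fold change was 0.01 ± 0.16 (0.00776% of genes called). It was the 1 member called at 2 or 4 hr outside the DS, where the other contrasts called 0.0386% (NAc acute 4 hr), 0.0233% (Amy repeated 2 hr), 0.0231% (NAc challenge 2 hr), 0.0151% (LH repeated 2 hr), 0.00771% (NAc repeated 4 hr), 0.00755% (LH acute at each time) or 0% of genes. The sizes at 1 hr ran from 0.84 to 0.95 over the 3 experiences, and those after acute and repeated cocaine, with 2 mice a group, were not called. Within the 2 runs the challenge difference was 1.05 and 0.68 in log2(CPM + 1). The 1 hr call was lost without 0 hr replicate 3, and the 2 hr call without 0 hr replicates 1 or 3 or 2 hr replicates 1 or 2.

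In the limbic cortex Gadd45b had 24.6 and 24.5 CPM at 0 hr and 48.0 and 48.2 CPM at 1 hr after repeated cocaine (0.96 ± 0.21, adjusted p = 0.0762). After challenge it rose from 30.5 and 31.7 CPM to 53.7, 52.9, 54.6 and 74.7 CPM (0.92 ± 0.19, adjusted p = 0.0474). This call was lost in 5 of the 6 fits that left out a mouse, all but the one without 1 hr replicate 2, and with RLE scaling. Within the 2 runs of the challenge libraries the difference was 0.81 and 0.99 in log2(CPM + 1). Btg2 in the limbic cortex had a log2 fold change of 0.95 ± 0.27 after repeated and 0.72 ± 0.25 after challenge cocaine, and neither was called. After acute cocaine the groups overlapped, with 37.4, 19.2 and 23.1 CPM at 0 hr and 40.6 and 31.5 CPM at 1 hr (0.42 ± 0.23).

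In the nucleus accumbens Gadd45g rose after challenge from 13.4 and 14.1 CPM to 28.6, 27.2, 29.0 and 36.7 CPM, a log2 fold change of 1.19 ± 0.25 (adjusted p = 0.0307). The 0 hr mice both came from 1 run, and within that run the difference was 1.01 in log2(CPM + 1). The call was lost with DESeq2 and with a term for the run, and without 0 hr replicate 1 or 1 hr replicate 4. Acute and repeated cocaine gave 0.26 ± 0.20 and 0.23 ± 0.28 for this gene, and neither was called. Btg2 had 15.8, 21.9, 11.4 and 9.14 CPM in naive NAc mice and 14.6, 10.3, 17.7 and 21.8 CPM 1 hr after acute cocaine. These groups overlapped throughout (0.14 ± 0.26, adjusted p = 0.9995). Around challenge Btg2 had 13.7 and 14.4 CPM at 0 hr and 19.6, 26.2, 23.6 and 27.3 CPM at 1 hr. After repeated cocaine it had 11.5 and 11.7 CPM at 0 hr and 13.6 and 25.3 CPM at 1 hr. Neither of these comparisons overlapped, and neither was called. The shares of all genes without overlap are given further on.

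**Figure D3:**
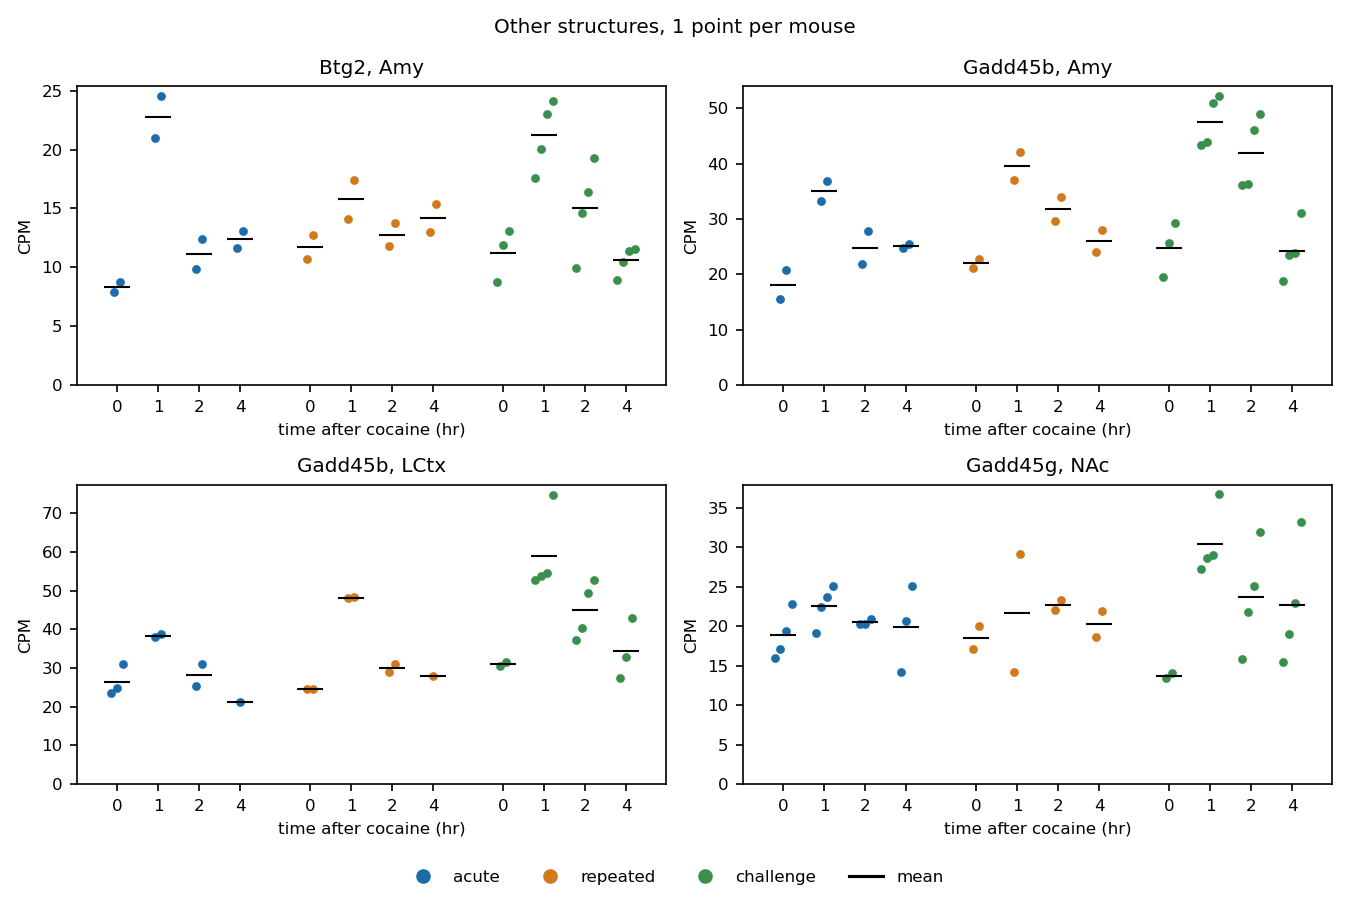
CPM of Btg2 and Gadd45b in the amygdala, Gadd45b in the limbic cortex and Gadd45g in the nucleus accumbens (vertical axes) against hours after cocaine (horizontal axes), with 1 point per mouse, a bar at the mean and a colour for each experience. Most groups hold 2 to 4 mice, and Gadd45b in the amygdala 1 hr after challenge lies at 43.3 CPM or above, over the 29.3 CPM of the highest 0 hr mouse.

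The induction of the DS and NAc after acute cocaine was compared directly, with 4 mice at each time in both. The mice of both structures had the same cohort and animal numbers. The fit did not pair them, so its errors treat these libraries as independent. The DS minus NAc difference was 1.25 ± 0.44 for Btg2 (adjusted p = 0.645), 1.46 ± 0.45 for Sik1 (adjusted p = 0.484) and 0.78 ± 0.25 for Gadd45b (adjusted p = 0.511). No member was among the 24 genes called, 0.195% of 12306. Leaving out 1 mouse gave a call for Btg2 without DS naive replicate 1 (1.77, adjusted p = 0.0123) and for Gadd45b without NAc 1 hr replicate 4 (1.03, adjusted p = 0.0475).

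Groups that did not overlap were frequent for some members and rare for others. Over the 14 comparisons of 1 with 0 hr that had at least 2 mice a group, all mice at 1 hr were above all mice at 0 hr in 11 for Btg2, 10 for Gadd45b, 6 for Sik1, 5 each for Gadd45g and Cyr61, 4 for Ier2, 3 for Gadd45a, 2 each for Ier5 and Srf and 1 for Btg1. Of all genes tested, 2.32, 1.65 and 3.5% had all mice at 1 hr above all at 0 hr after acute, repeated and challenge cocaine for DS samples, 1.74, 15.4 and 5.48% for NAc, 12, 17.3 and 4.92% for LCtx and 16.6, 17.5 and 2.48% for Amy. For LH the shares were 16.6 and 20.6% after acute and repeated cocaine. The shares over 12% belong to comparisons of 2 with 2 mice. All mice at 1 hr were below all at 0 hr in 1 comparison for Btg1, the NAc after challenge, where 10.6% of genes were, and in 0 for each of the other members. Structures with the same cohort and animal numbers are not independent of each other here.

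Cyr61 (chr3:145646976-145649981, minus strand) had 1 library far above all its others. In the DS it had 41.0, 3.47, 2.18 and 0.817 CPM in the 4 naive mice and 3.66, 1.64, 2.25 and 1.22 CPM 1 hr after acute cocaine. The fit called it lower at 1 hr (-2.38 ± 0.56, adjusted p = 0.0111), 2 hr (-1.996 ± 0.53, adjusted p = 0.0423) and 4 hr (-2.03 ± 0.53, adjusted p = 0.0413). The 1 hr call was lost without naive replicate 1 and without 1 hr replicate 2 or 4. The 2 and 4 hr calls were lost without naive replicate 1 and without any 1 mouse of the later group. The 41.0 CPM rest on 121 counts in naive replicate 1, the library with raised mural, meningeal and choroid plexus genes. Without that library the log2 fold changes were 0.28 ± 0.56, 0.67 ± 0.53 and 0.64 ± 0.53, none called, and the share of genes called at 1 hr was 0.511% instead of 1.05%. The second libraries of the shared run, which did not include that mouse, gave 0.07 ± 0.77 at 1 hr, -0.31 ± 0.79 at 2 hr and 0.37 ± 0.75 at 4 hr, none called.

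**Figure D4:**
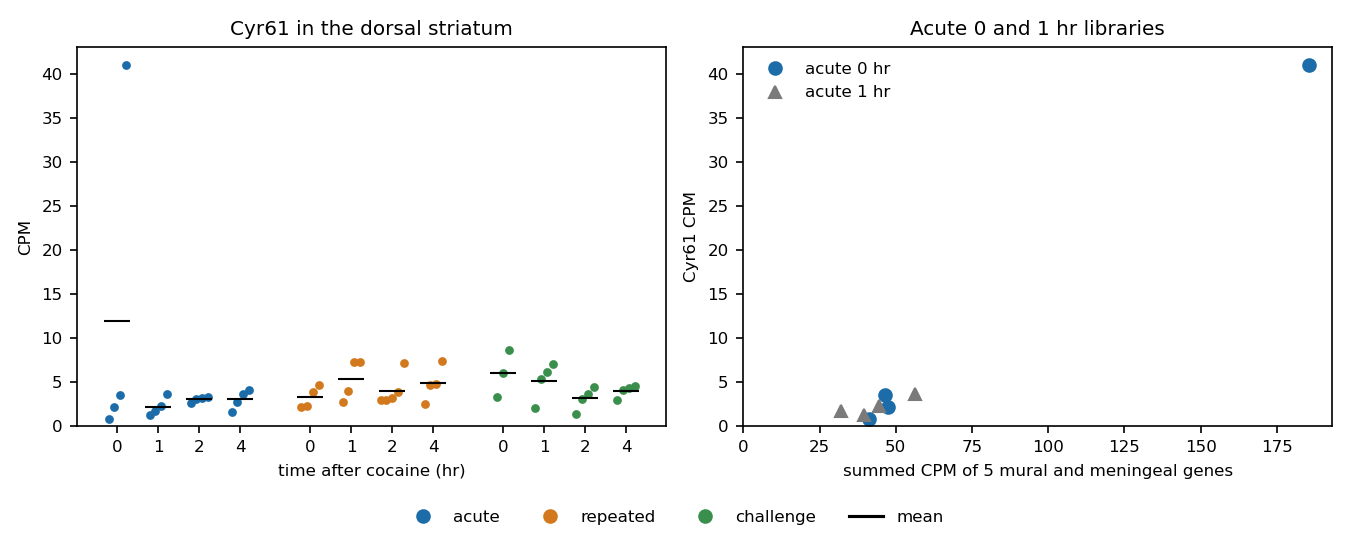
Left, Cyr61 CPM in the DS (vertical axis) against hours after cocaine, with 1 point per mouse, a bar at the mean and a colour for each experience. Right, Cyr61 CPM against the summed CPM of 5 mural and meningeal genes in the 8 acute libraries at 0 hr (circles) and 1 hr (triangles); a single naive library lies at 41.0 and 185 CPM, and the other 7 lie at 0.817 to 3.66 CPM of Cyr61 and 32.2 to 56.3 CPM of the marker genes.

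Relatives of Cyr61 were examined with and without the same library. Among 13 genes of the CCN family and of the YAP and TEAD pathway, 8 were tested in the DS and 3 were called lower 1 hr after acute cocaine, where 0.348% of all genes were called lower: Ctgf, the closest relative of Cyr61 (-2.02 ± 0.54, adjusted p = 0.0467), Amotl2, a target of YAP (-1.30 ± 0.27, adjusted p = 0.00241), and Yap1 itself (-0.78 ± 0.16, adjusted p = 0.00215). The list had a median log2 fold change of -0.66, against -0.01 over all genes. Without naive replicate 1, Ctgf had -0.11, Amotl2 -0.81 (adjusted p = 0.402) and Yap1 -0.71 (adjusted p = 0.0319), so that Yap1 alone was called.

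In 5 of the 14 comparisons at 1 hr, none of them in the DS, all Cyr61 values lay above those at 0 hr, by amounts with wide errors. In the limbic cortex it had 1.76 and 1.38 CPM at 0 hr and 13.5 and 6.30 CPM at 1 hr after repeated cocaine (2.59 ± 0.60, adjusted p = 0.146), and 1.57 and 0.845 CPM at 0 hr and 9.26, 9.61, 3.50 and 11.4 CPM at 1 hr after challenge (2.70 ± 0.61, adjusted p = 0.132). Amygdala values were 2.93 and 0.606 CPM at 0 hr and 7.87 and 10.8 CPM at 1 hr after acute cocaine (2.37 ± 0.54, adjusted p = 0.102), and 3.99, 0.337 and 3.47 CPM and 8.03, 6.27, 9.76 and 6.17 CPM after challenge (1.49 ± 0.38, adjusted p = 0.237). The groups did not overlap in any of these 4 comparisons, and none was called. The fifth was the LH after acute cocaine, with 1.45 and 1.07 CPM at 0 hr and 1.92 and 2.04 CPM at 1 hr (0.62 ± 0.75). It compared 2 with 2 mice, as did LCtx after repeated and Amy after acute cocaine. The shares of all genes without overlap, given above, were highest in such comparisons. Values overlapped in the limbic cortex after acute cocaine (2.79 to 6.43 CPM and 5.45 to 8.86 CPM) and in Amy after repeated cocaine (3.95 to 5.83 CPM and 3.82 to 6.97 CPM). The first 4 were called when no filter on low counts was applied (adjusted p = 0.00336 to 0.0198). The mural and meningeal sum moved with Cyr61 in the limbic cortex after repeated cocaine, from 129 to 159 CPM at 0 hr to 184 to 198 CPM at 1 hr, and its part in the result was not tested. After challenge it was 109 to 116 CPM in the 2 limbic cortex mice at 0 hr and 108 to 282 CPM in the 4 at 1 hr. Those mice came from 2 sequencing runs with 1 mouse at 0 hr in each, and within the runs Cyr61 differed by 1.52 and 2.64 in log2(CPM + 1). In the amygdala the mural and meningeal sum was 47.9 to 55.1 CPM at 0 hr and 55.2 to 56.04 CPM at 1 hr after acute cocaine, and 44.9 to 58.2 CPM and 43.5 to 54.6 CPM around challenge, so the sums differed little there.

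Ier2 (chr8:84661331-84662852, minus strand) was scarce, with medians of 2.49 CPM in the DS and 11.1 CPM in the limbic cortex, and was called in no contrast with 0 hr. Its fitted level 1 hr after repeated cocaine was above that at 0 hr in all 5 structures, with log2 fold changes of 1.43 ± 0.51 for DS, 1.34 ± 0.48 for NAc, 1.29 ± 0.40 for LCtx, 1.14 ± 0.41 for Amy and 1.23 ± 0.54 for LH. None was called (adjusted p from 0.564 to 1.0), and after acute cocaine the log2 fold changes ran from -0.29 to 0.31. After challenge they were 0.01 ± 0.48 for DS, -0.21 ± 0.46 for NAc, 0.62 ± 0.36 for LCtx and 0.52 ± 0.32 for Amy, none called. The 5 results are not 5 independent ones, because 2 mice at 0 hr and 2 at 1 hr, by cohort and animal number, gave libraries in all 5 structures. In the DS the cohort of these mice had a difference of 1.62 in log2(CPM + 1), and the other cohort, which has DS libraries alone, 0.50. The second libraries of the same 4 mice went the other way, with 3.45 and 1.06 CPM at 0 hr and 1.18 CPM in both at 1 hr, on 2 to 6 counts each.

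Baselines were tested against naive mice within a run, and no member was called. Each experience came from mouse cohorts of its own, so cohort and experience cannot be told apart even within a run. By the schedule, abstinent mice were also older at collection than naive ones. In the DS libraries of the shared run, 9 members could be tested at 0 hr, and 0 were called in repeated against naive mice (1.86% of genes called) or in abstinent against naive mice (3.48%). Sik1 came closest: it had 3.71 and 3.09 CPM in naive, 5.17 and 10.6 CPM in repeated and 15.04 and 13.9 CPM in abstinent mice, and the abstinent mice exceeded the naive ones by 2.08 ± 0.63 (adjusted p = 0.0501). RLE scaling gave an adjusted p of 0.0499 and the fit without a filter 0.0246. In the time-course libraries, where run and experience cannot be told apart, the same difference was 1.37 ± 0.36 (adjusted p = 0.0017). Abstinent against repeated mice at 0 hr was not tested. Their DS time-course libraries came from 1 run, and Sik1 there was 1.63 to 6.72 CPM in repeated and 7.11 to 9.03 CPM in abstinent mice. Naive against repeated mice within 1 run gave 0 of 10 members in Amy (0.0465% of genes) and in the LH (1.75%).

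Other genes of the same pathways were mostly called nowhere. Those with enough counts to be tested, by structure, were 12 of 13 on the BTG list, 11 to 13 of 13 on the GADD45 list, 7 of 7 on the IER list, 8 to 10 of 13 on the CCN and YAP list, 11 of 11 on the SIK list and 11 to 12 of 13 on the SRF list. Over the 40 contrasts of a later time with 0 hr, none of the 13 relatives of BTG proteins and subunits of the deadenylase was called, nor was any of the 7 relatives and partners of IER proteins or the 11 SIK kinases, upstream kinase and substrates. Among 13 partners of GADD45 proteins there was 1 call, Cdkn1a, a cell cycle inhibitor, higher in the NAc 2 hr after challenge, where 0.0231% of genes were called. Without naive replicate 1 Cdkn1a was also called higher in the DS 1 hr after acute cocaine (0.70 ± 0.14, adjusted p = 0.00288). The CCN and YAP list had 1 call upwards, Ctgf in the limbic cortex 1 hr after repeated cocaine (0.0521% of genes), beside the 3 downwards described above. Of 13 cofactors and targets of SRF 1 was called, Tagln, an actin-binding gene of smooth muscle, lower in the DS 2 hr after acute cocaine (1.07% of genes), and not called without naive replicate 1 (0.19 ± 0.25). Tagln is also one of the 5 mural and meningeal genes. Cdkn1a, Tagln and the limbic cortex call of Ctgf are named because so few genes were called, and were chosen after their values were seen.

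The genes whose group means followed those of a member most closely were found by Pearson's r over the 60 group means of log2(CPM + 1), each structure and experience centred on its own mean over the time points, among 11236 genes with a mean of 5 CPM or more. These means share libraries and structures, and r is given as a description. Cyr61 itself had a mean of 3.82 CPM, below the 5 CPM asked of the genes compared. Its group means include the naive DS library at 41.0 CPM, whose part in its r was not tested. Btg2 was followed by Junb (r = 0.90) and Arc (0.89), Gadd45b by Per1 and Fos (both 0.80), and Sik1 by Fos (0.71) and Tiparp (0.70). Gadd45g was followed by Ddit4 (0.70) and Gadd45b (0.69), Cyr61 by Cebpd (0.63) and Ddit4 (0.60), Ier2 by Fam46a (0.63) and Tob2 (0.57), and Ier5 by Dnajb5 (0.60) and Dio2 (0.58). Srf (Josd1 and Trak1), Btg1 (Bloc1s1 and H2-T23) and Gadd45a (Litaf and Daxx) had no gene above 0.60. Among the members themselves r ran from -0.12 to 0.73 over the 45 pairs. It was highest for Btg2 and Gadd45b (0.73), Gadd45b and Gadd45g (0.69), Btg2 and Sik1 (0.64) and Gadd45b and Sik1 (0.62). Gadd45a was at most at 0.16 with any other member and Btg1 at most at 0.26.

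The level of the members differed between structures. By the median over all time-course libraries, Gadd45b was highest in the DS (37.1 CPM), followed by the LCtx (32.2 CPM), Amy (29.3 CPM), the NAc (22.7 CPM) and the LH (11.001 CPM). Ier5 had the order DS (135 CPM), LCtx (130 CPM), NAc (75.4 CPM), Amy (61.6 CPM) and LH (29.2 CPM), and Srf the order DS (82.6 CPM), NAc (74.8 CPM), LCtx (74.7 CPM), Amy (61.4 CPM) and LH (33.0 CPM). Gadd45a ran the other way, with 11.1 CPM in the LH and 4.50 CPM in the NAc. Btg2 was highest in the LCtx (22.6 CPM) and between 9.77 and 13.003 CPM in the other 4, and Ier2 was likewise highest in the LCtx. Btg1 was near 10 CPM in the DS and NAc (10.6 and 10.3 CPM) and 4.79 to 6.10 CPM elsewhere. Gadd45g (18.7 to 28.6 CPM), Sik1 (3.41 to 6.10 CPM) and Cyr61 (2.10 to 3.73 CPM) had medians that lay closer together. These medians pool all times and experiences, and the order in naive mice differed for some members. Naive Ier5 was 122 to 142 CPM in the LCtx, above all DS mice (99.7 to 118 CPM), and naive Btg1 was 8.39 to 10.5 CPM in the LCtx, above all DS mice (5.45 to 7.63 CPM). These structures came from different runs, and the second libraries of 2 naive DS mice had 9.27 and 9.71 CPM of Btg1, within the LCtx range. Their Ier5 (108 and 113 CPM) was below it. The naive LCtx libraries are among those with high blood genes (8993 to 12620 CPM), whose part in these values was not tested. At 0 hr in the LCtx Btg1 was 4.13 to 6.33 CPM after repeated cocaine and 2.96 to 7.86 CPM before challenge, below all DS mice of the same groups (10.1 to 16.7 CPM and 11.7 to 17.6 CPM). Among the naive mice the ranges of all 5 structures were separate for Ier5. For Srf, DS, LCtx, NAc and Amy overlapped as neighbours and LH lay below, and for Btg2, Gadd45g, Sik1 and Cyr61 no neighbours in the order were separate.

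**Figure D5:**
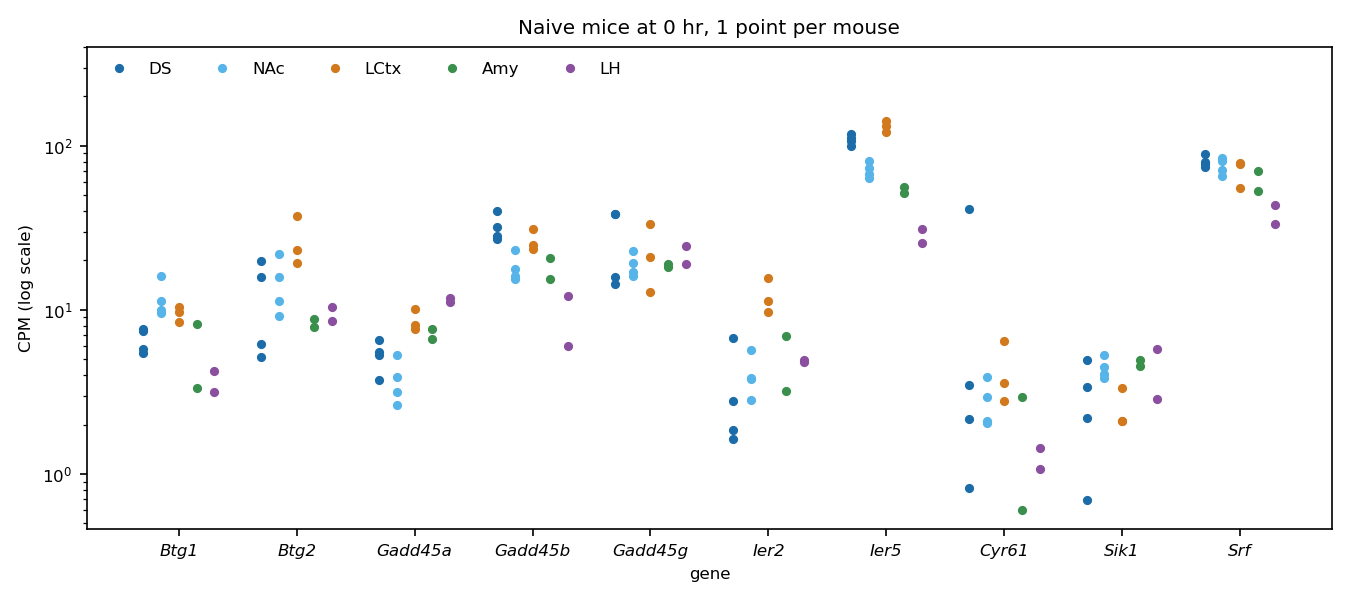
CPM of each member (horizontal axis) in naive mice at 0 hr on a logarithmic vertical axis, with 1 point per mouse and a colour for each structure. Ier5 runs from 25.6 CPM in the LH to 142 CPM in the LCtx, and the single DS point of Cyr61 at 41.0 CPM lies apart from all others of that gene.

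Structures were compared within a run for 2 pairs. Challenge libraries of the NAc, LCtx, Amy and LH also shared runs, and levels were not compared there. Between Amy and LH, 16 libraries each, 6 of 10 members differed, where 44.5% of 13103 genes did. Gadd45b (1.26 ± 0.09, adjusted p = 1.4e-19), Srf (0.98 ± 0.07, adjusted p = 6.59e-20), Ier5 (0.94 ± 0.07, adjusted p = 1.35e-18), Cyr61 (0.86 ± 0.23, adjusted p = 0.00105) and Btg2 (0.38 ± 0.11, adjusted p = 0.00172) were higher in Amy, and Gadd45a was lower (-0.88 ± 0.12, adjusted p = 4.98e-09). Between LCtx and NAc, with 7 and 8 libraries, 6 of 10 members differed as well, where 40.0% of 13162 genes did. Ier2 (0.97 ± 0.22), Gadd45a (0.88 ± 0.25), Ier5 (0.85 ± 0.07), Btg2 (0.64 ± 0.16) and Gadd45b (0.43 ± 0.11) were higher in the LCtx and Btg1 was lower (-0.89 ± 0.25), with adjusted p-values from 1.55e-12 for Ier5 to 0.00378 for Btg1. The share of members that differed was near that of all genes in both pairs. Most libraries of a pair share cohort and animal numbers. The fit did not pair them, so these errors and p-values treat the libraries as independent.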

How the data were processed

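RNA was measured by 3′ RNA sequencing with unique molecular identifiers in 194 libraries. The authors deposited 1 table of counts per gene: per the study's methods, reads were trimmed of polyA, aligned with STAR to GRCm38, stripped of PCR duplicates by their identifiers and counted with HTSeq, and libraries with few usable reads were removed. Versions and the strand setting are not given in the sources used here. Samples were grouped by their labels (structure, experience, time). Totals ran from 1193306 to 10367769 counts, with a median of 3296647, so that a gene at 1 CPM rests on few counts. Nothing in the labels gives separate cages or litters, and p-values measure the spread between these mice.

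Each structure was fitted with edgeR 4.0.16 in R 4.3.3 (filterByExpr by group, TMM scaling, quasi-likelihood F test), using 1 library a mouse. Genes were called at a Benjamini-Hochberg adjusted p under 0.05 over all genes tested and a fold change over 1.2. Errors of log2 fold changes are standard errors, obtained as the change divided by the square root of F. The script was tested on simulated data. Alternatives were RLE scaling, DESeq2 1.42.0, no filter, a replicate block, a batch term, summed runs, the shared run alone, the time-course libraries for the baseline, and leaving out each mouse. A contrast with a group of 1 mouse was not tested. Figures were drawn with matplotlib 3.10.9, and CPM and correlations came from pandas 2.3.3 and numpy 2.4.6 under Python 3.11.15.

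Libraries of 1 group were compared by a chi-square test over genes with at least 20 counts. Pairs of different mice gave at least 1.56 per degree of freedom (266 pairs), so none was taken for a duplicate deposit. The 28 pairs of libraries of 1 mouse in different runs had a median of 5.90, above the 3.73 between different mice of a group, so a second library differs from the first by more than sampling. Sequencing runs and cohorts come from the study's sample names. Gene positions are those of GENCODE on GRCm38. The named genes were the 10 members, from each pathway list up to 3 genes called in the DS 1 hr after acute cocaine, and for each member the 2 genes most like it. Cdkn1a, Tagln and the limbic cortex call of Ctgf fall outside this rule and were chosen after their values were seen. Members and lists were chosen with earlier results of these data known.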

Additional observations from a re-analysis of the deposited data

Results flagged for a closer look

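Among 210 groups of 4 or 5 mice for a gene, 16 held a library whose gap to the nearest other was large against the range of the group (Dixon's test at 95%), and chance alone gives about 1 in 20. One was Cyr61 in naive DS replicate 1, at 41.0 CPM (121 counts) against 3.47 CPM for the next mouse, in the library with raised mural, meningeal and choroid plexus genes. Their part in the value was not tested. Cyr61 also had a high mouse in the DS 2 hr after repeated cocaine (7.13 CPM, next 3.80 CPM) and a low one in the NAc 1 hr after acute cocaine (2.73 CPM, next 3.83 CPM).

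Gadd45b was flagged 4 times. The highest mouse in the LCtx 1 hr after challenge had 74.7 CPM (next 54.6 CPM), and without it the call there was lost. In the DS the highest mouse 2 hr after acute cocaine had 53.8 CPM (next 37.8 CPM) and the lowest 0 hr mouse of the repeated experience 23.5 CPM (next 31.0 CPM). The lowest mouse in the NAc 1 hr after challenge had 20.0003 CPM (next 33.7 CPM). Gadd45a had a low mouse in the DS 2 hr after acute cocaine, at 1.83 CPM (5 counts, next 5.61 CPM).

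Btg1 had a high mouse in the DS 2 hr after acute cocaine (10.1 CPM, next 4.22 CPM), and low mice 1 hr after challenge in the LCtx (4.95 CPM, 10 counts, next 8.40 CPM) and the NAc (8.74 CPM, next 12.8 CPM). This NAc mouse, replicate 2, also had the lowest Srf, at 64.6 CPM (next 74.8 CPM). Ier2 had a high mouse in Amy 4 hr after challenge (4.87 CPM, 12 counts, next 3.33 CPM) and a low one in the NAc 1 hr after acute cocaine (1.97 CPM, 7 counts, next 3.64 CPM). Sik1 had high mice 2 hr after challenge in the LCtx (7.54 CPM, 9 counts, next 3.63 CPM) and the NAc (8.87 CPM, next 4.26 CPM).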

How the results depend on the processing

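Of 38 counts of members called, 11 were above 0. Over the alternatives other than leaving out a mouse, 202 counts were within 1.5 times the reported one, 17 were higher and 10 lower, and the cause was not tested. In the DS after acute cocaine the count at 1 hr (4) was 2 in the shared run alone, and that at 2 or 4 hr (1) was 3 with no filter, 2 with a batch term, 0 with summed runs and 0 in the shared run. After repeated cocaine the DS count (1) was 2 with DESeq2 and 2 with summed runs, and after challenge (2) it was 0 in the shared run, which has 2 mice a group. The NAc challenge count at 1 hr (1) was 0 with DESeq2, 0 with a batch term and 0 with summed runs, and that at 2 or 4 hr (0) was 1 with no filter. In the LCtx the repeated count (0) was 2 with no filter and 1 with a batch term, and the challenge count (1) was 0 with RLE scaling and 2 with no filter. The Amy counts at 1 hr were 3 (no filter) and 2 (batch term) after acute cocaine instead of 1, and 1 (no filter) after repeated cocaine instead of 0. With no filter 2 members, Gadd45b and Cyr61, differed between repeated and acute induction in the DS. At baseline in the DS, 3 members were called in repeated mice and 3 in abstinent mice from the time-course libraries, where run and experience cannot be told apart and 4444 and 4659 of 12918 genes were called, and 1 in abstinent mice with RLE scaling and 1 with no filter.

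Replicate numbers did not pair the samples: deviations of same-numbered libraries correlated with a median between -0.0045 and 0.0087 within a structure, and 0.027 to 0.036 between structures of the same cohort and animal number. With the replicate block the count was 0 for NAc challenge at 1 hr, 0 for LCtx challenge at 1 hr and 2 for Amy acute at 1 hr, and it changed no other count of members by over 1.5 times.

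Leaving out 1 mouse gave 2 to 4 members in the DS 1 hr after acute cocaine, 0 to 3 at 2 or 4 hr, 1 to 2 after repeated and 1 to 2 after challenge cocaine. The range was 0 to 1 for NAc challenge, LCtx challenge and Amy acute at 1 hr, 0 to 2 for Amy challenge at 1 hr and 0 to 1 at 2 or 4 hr, and 0 to 1 for repeated minus acute induction in the DS, the LH baseline and DS against NAc. Cyr61 in the DS after acute cocaine changed sign, to 0.068 at 1 hr and 0.37 at 4 hr in the shared run, but not at 2 hr (-0.31). Leaving out 1 mouse gave it -2.81 to 0.28 at 1 hr, -2.43 to 0.67 at 2 hr and -2.46 to 0.64 at 4 hr, the upper ends without naive replicate 1.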
